A study of Mus musculus with 3 samples.

Results

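The genes described here make, import, sense, store and export cholesterol. They are 34 genes chosen by name: 18 enzymes of cholesterol synthesis, the regulators of the SREBP and LXR systems, and proteins of sterol transport, uptake, storage and efflux. All 34 had a row of their own among the 23997 genes in the files, and all 34 reached a mean of 1 FPKM over the 3 libraries, as did 11114 genes in all. FPKM gives fragments relative to transcript length and library size, so levels of different genes can be set side by side per length. The lowest members by mean were Lss and Hsd17b7, at 1.2 and 1.27 FPKM.

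The RNA came from macrophages of the colon of untreated male C57BL/6 mice, sorted as CD64-positive cells with low Ly6C and no Siglec-F. The library labelled Tle3cKO pooled cells of 3 mice with floxed Tle3 and Lyz2-Cre, the Tle4cKO library pooled 4 mice with floxed Tle4 and Lyz2-Cre, and the WT library pooled 4 mice with Lyz2-Cre alone. All groups thus carry Lyz2-Cre, a driver of Cre recombinase in the myeloid lineage and so also in myeloid cells outside this gate. The age is 9 weeks by the protocol and 8.9 weeks by the sample tag. TLE3 and TLE4 are Groucho-family corepressors, which DNA-binding factors recruit to repress genes. With 1 library per genotype no replicate spread was measured, so no difference below has a replicate check or a p-value. In bulk RNA, fewer cells of a type and less RNA per cell cannot be told apart.

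Cells control cholesterol with opposing systems. SREBP transcription factors are held in the endoplasmic reticulum by SCAP and the INSIG proteins while sterols are plentiful. When sterols run short they are released, cut and sent to the nucleus, where they switch on synthesis and uptake. LXR nuclear receptors are activated by oxysterols when cholesterol is in excess, and they switch on export through ABC transporters and apolipoprotein E. Tissue macrophages take in much cholesterol from engulfed cells and lipoproteins, and are known for strong LXR-driven efflux. In the text, the SREBP arm is the 18 enzymes with Insig1, Srebf2 and Stard4 (21 genes). The LXR arm is Nr1h2, Nr1h3, Abca1, Abcg1, Mylip, Apoe, Srebf1 and Lpl (8 genes), and 5 members are in neither.

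The targeted gene does not bear out the label of the Tle3cKO library. The level of Tle3 was 70.7 FPKM there, 46.9 in Tle4cKO and 38.6 in WT, so every direction that uses that library follows a label in doubt. A value summed over the gene need not drop when only some exons are lost. Here Tle3 was higher than in WT, values per exon were not examined, and the reason was not tested. Tle4 had 11 FPKM in the library labelled Tle3cKO, 5.8 in Tle4cKO and 8.5 in WT. Total FPKM was lowest in the library labelled Tle3cKO, at 569961, against 598023 in Tle4cKO and 610714 in WT. Relative depth, read from the steps between the lowest values, was 0.966 of WT in the library labelled Tle3cKO and 1.21 of WT in Tle4cKO, and absolute depth is unknown. Macrophage genes matched the label: 9 of 10 listed markers were found and measured, summing to 5320 FPKM in the library labelled Tle3cKO, 5690 in Tle4cKO and 5920 in WT. Single markers did not all follow that order. Fcgr1, the gene of CD64, was at 36, 39.2 and 33.3 FPKM and Mertk at 7.65, 6.17 and 4.46, so both were lowest in WT. Markers of other cells were present and uneven. The 16 epithelial markers summed to 10.7, 49 and 5.04 FPKM in the same order, with Krt20, Spink4, Tff3, Fabp2 and Slc26a3 listed at 0 in WT, Fabp2 and Slc26a3 in the library labelled Tle3cKO, and Tff3 in Tle4cKO. The 9 B and plasma cell markers found summed to 140, 287 and 105 FPKM, the 11 stromal, endothelial and muscle markers to 295, 280 and 249, the 6 enteric glial markers to 33.9, 11.9 and 34.7, and 3 rows that can take up abundant non-coding RNA (Rmrp, Rpph1 and Lars2) to 502, 164 and 201. The 7 markers of T cells, NK cells and innate lymphoid cells that were found summed to 348, 338 and 341 FPKM, nearly all of it Il7r, at 342, 332 and 337. Cd3e, which encodes a T cell receptor subunit, was at 1.55, 1.7 and 0.401 FPKM and Cd3d at 1.07, 1.26 and 0.63, so both were lowest in WT. The 10 immediate early and heat-shock genes, which cell dissociation can induce, summed to 2540, 2370 and 2720 FPKM. The heat-shock genes among them were Hspa1a, at 292, 246 and 328 FPKM, and Hspa1b, at 315, 271 and 359. Of the 10 genes, 9 were below WT in each of the other libraries. The share of all genes below WT was 50.6% for Tle4cKO and 52.4% for the library labelled Tle3cKO.

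The members differed widely in level. Apoe, the apolipoprotein that carries cholesterol away from macrophages (ENSMUSG00000002985.16, chromosome 7, 19696109 to 19699188 of mm10), had 8280 FPKM in the library labelled Tle3cKO, 8850 in Tle4cKO and 9290 in WT. It ranked 6, 6 and 7 among all genes of those libraries. Npc2 and Npc1, which hand cholesterol from the lysosome to the rest of the cell, were also abundant. Npc2 was at 249, 281 and 272 FPKM in the library labelled Tle3cKO, Tle4cKO and WT, and Npc1 was at 63.1, 73.7 and 72.1. Abca1, the transporter that loads cholesterol onto apolipoproteins, had 113 FPKM in the library labelled Tle3cKO, 109 in Tle4cKO and 99.6 in WT. Soat1, which esterifies cholesterol for storage, stayed between 68.2 and 69.5 FPKM in all 3 libraries.

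Synthesis enzymes stood far lower. Their 18 values summed to 230.7 FPKM in the library labelled Tle3cKO, 243.3 in Tle4cKO and 247.7 in WT, which is less than the level of Npc2 alone. As a share of all FPKM of the library, the same sums were 0.0405%, 0.0407% and 0.0406%, nearly equal. The highest enzyme in all 3 libraries was Pmvk, the phosphomevalonate kinase, at 40.5 FPKM in the library labelled Tle3cKO, 43.2 in Tle4cKO and 44 in WT. Msmo1, a methylsterol oxidase, followed at 35.8, 36.8 and 39.2. At the other end, Lss, which closes squalene epoxide into lanosterol, had 0.995 FPKM in the library labelled Tle3cKO, 1.3 in Tle4cKO and 1.32 in WT. Enzymes of a single pathway thus differed by more in level from each other than any of them did between libraries. Among the regulators, Srebf2, the main driver of synthesis genes, had 56.2 FPKM in the library labelled Tle3cKO, 60.3 in Tle4cKO and 58.5 in WT. Srebf1 was lower, at 20.1, 22.4 and 20.9, and the ratio of Srebf2 to Srebf1 was 2.8, 2.69 and 2.79.

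**Figure D1:**
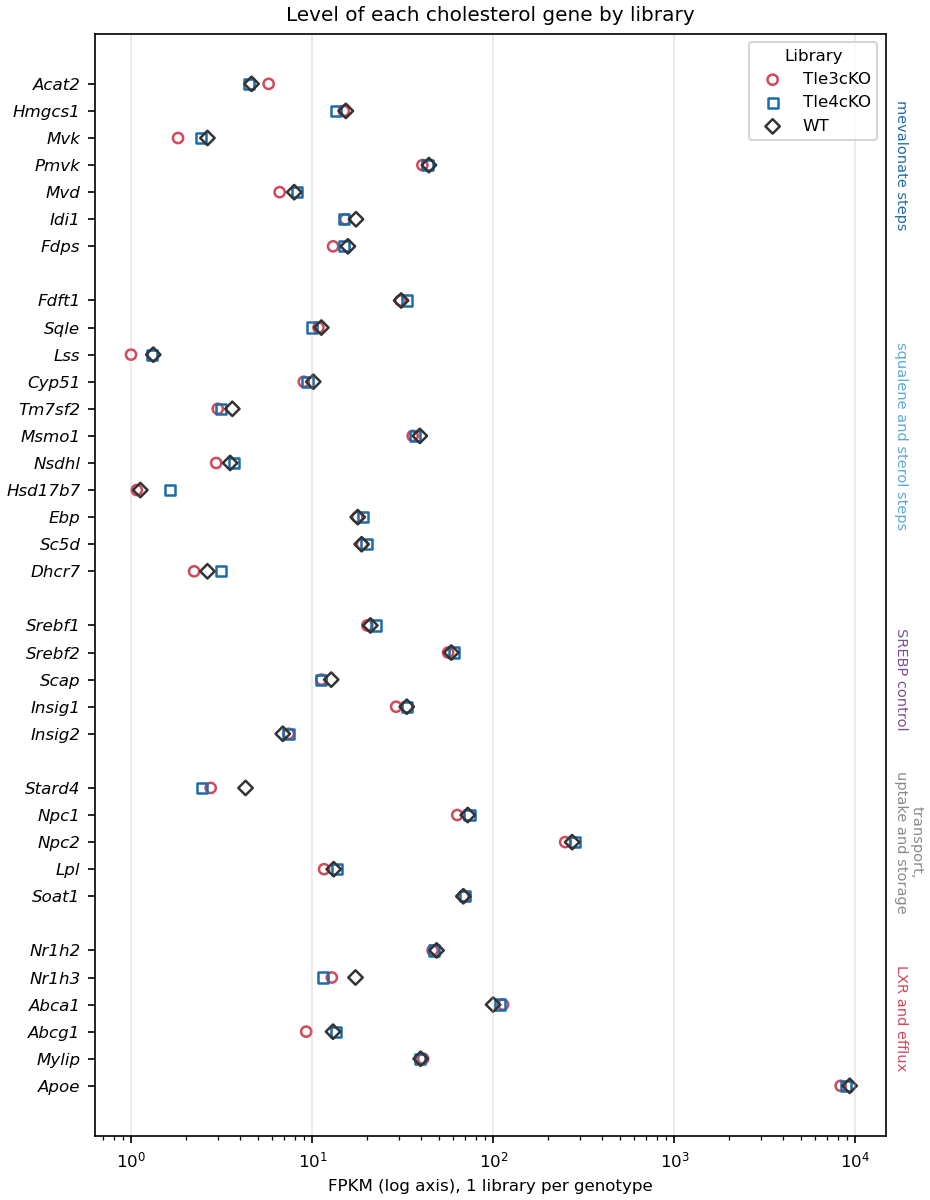
FPKM of each of the 34 genes on a log axis, with the genes grouped by role down the page and 1 symbol per library (circles, the library labelled Tle3cKO; squares, Tle4cKO; diamonds, WT). For most genes the 3 symbols overlap, and Stard4 and Nr1h3 have their WT symbol to the right of both others, at 4.27 and 17.3 FPKM.

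Promoter windows of the members were searched for motifs of the SREBP and LXR systems. Members were chosen as genes of these systems, so such motifs are no independent support for the arms. RefSeq promoter windows of 300 bases (250 before to 50 after a transcription start, GRCm38.p6, the build also called mm10) were found for 27 of the 34 members. Fdps, Fdft1, Sqle, Stard4, Abcg1, Npc1 and Lpl had no entry. Searches on both strands used CCAAT, the box bound by NF-Y, which works beside SREBPs; TCACNNCAC, a relaxed form of the sterol regulatory element; and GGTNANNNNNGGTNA, a relaxed direct repeat with a spacer as bound by LXR with its partner RXR, called DR4. The letters of the sterol element and the direct repeat were settled after several forms had been tried on these windows. Their shares are therefore fitted to these genes and are given as description only. CCAAT was in 14 of 15 matched enzymes (93.3%), in 2 of 6 matched LXR arm genes, and in 41.1% of the 27025 genes of the table, where a gene counts if any of its windows holds a match. It was in 21 of all 27 matched members. These include Insig2, Npc2 and Soat1, which are in neither arm, while Scap, also in neither, had none. The sterol element was in 4 of the 15 enzymes, Hmgcs1, Msmo1, Hsd17b7 and Dhcr7, against 4.37% of all genes. The direct repeat was in Abca1 and Srebf1 alone of the 27 members, against 0.818% of all genes. Among the 8429 genes of the table with a mean of at least 1 FPKM the shares were 42.1%, 4.29% and 0.653%, in the same order. A sterol element and a CCAAT box overlapped in Msmo1, and no other pair of different motifs overlapped. Such matches are letters, not shown to be sites, and windows without a match say nothing of elements elsewhere.

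Shown are an enzyme with both SREBP-type motifs (Hmgcs1), the matched gene with the most CCAAT boxes (Mvk, 5), both genes with a direct repeat (Abca1 and Srebf1), and Nr1h3, whose level differed most among the matched LXR genes in Tle4cKO and whose window held none of the 3 motifs. Capitals mark the matches, each sequence runs 5′ to 3′ on the gene's strand, and those of Abca1, Srebf1 and Nr1h3 are from the minus strand. The windows are chr13:119690101-119690400 for Hmgcs1, chr5:114444019-114444318 for Mvk, chr4:53159846-53160145 for Abca1, chr11:60210422-60210721 for the third listed start of Srebf1 and chr2:91195067-91195366 for the start of Nr1h3 that its row in the files covers.
Hmgcs1: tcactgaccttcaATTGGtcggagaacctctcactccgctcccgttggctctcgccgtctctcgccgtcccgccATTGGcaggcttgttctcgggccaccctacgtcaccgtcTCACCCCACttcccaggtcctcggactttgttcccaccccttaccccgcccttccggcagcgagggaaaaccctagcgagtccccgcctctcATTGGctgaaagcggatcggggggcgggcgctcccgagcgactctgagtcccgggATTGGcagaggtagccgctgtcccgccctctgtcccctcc
Mvk: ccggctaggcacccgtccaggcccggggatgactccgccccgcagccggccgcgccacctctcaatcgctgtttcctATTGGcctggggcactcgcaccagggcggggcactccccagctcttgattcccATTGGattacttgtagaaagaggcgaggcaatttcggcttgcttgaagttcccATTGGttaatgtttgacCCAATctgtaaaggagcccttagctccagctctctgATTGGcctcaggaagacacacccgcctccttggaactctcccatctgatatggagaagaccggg
Abca1: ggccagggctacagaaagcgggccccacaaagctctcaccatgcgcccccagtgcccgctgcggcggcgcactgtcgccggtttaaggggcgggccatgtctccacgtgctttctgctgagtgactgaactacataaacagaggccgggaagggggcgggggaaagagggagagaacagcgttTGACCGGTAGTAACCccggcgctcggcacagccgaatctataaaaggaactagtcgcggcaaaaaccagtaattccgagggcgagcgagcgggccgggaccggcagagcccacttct
Srebf1: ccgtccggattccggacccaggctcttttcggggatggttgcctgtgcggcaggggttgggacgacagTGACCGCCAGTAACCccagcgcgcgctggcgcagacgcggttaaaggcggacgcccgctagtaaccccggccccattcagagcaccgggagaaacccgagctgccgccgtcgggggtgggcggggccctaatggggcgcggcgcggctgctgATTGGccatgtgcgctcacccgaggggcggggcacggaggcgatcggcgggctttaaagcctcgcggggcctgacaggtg
Nr1h3: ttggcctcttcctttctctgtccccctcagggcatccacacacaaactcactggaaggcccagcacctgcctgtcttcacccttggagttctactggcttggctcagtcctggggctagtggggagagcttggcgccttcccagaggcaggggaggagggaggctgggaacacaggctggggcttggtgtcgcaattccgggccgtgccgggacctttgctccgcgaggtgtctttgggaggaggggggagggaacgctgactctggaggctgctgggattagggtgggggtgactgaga

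The match in Hmgcs1 begins 137 bases before the start, and 4 CCAAT boxes lie around it. The direct repeats, which read on the opposite strand as printed, begin 67 bases before the start of Abca1 and 182 bases before that of Srebf1.

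**Figure D2:**
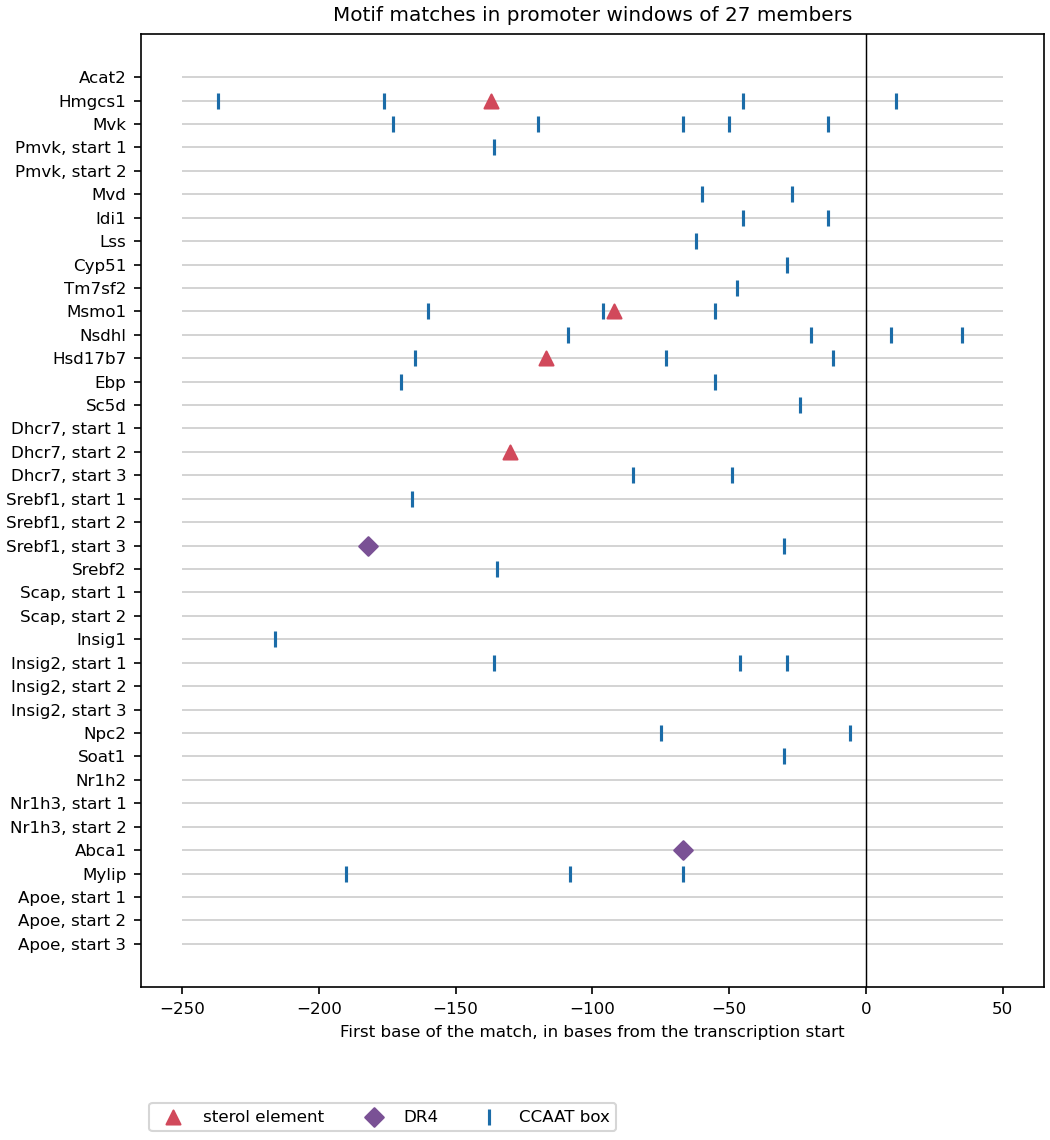
Positions of motif matches in the promoter windows of 27 genes, in bases from the transcription start (x axis), with 1 line per annotated start. CCAAT boxes (blue bars) recur through the synthesis enzymes from Hmgcs1 to Dhcr7, sterol elements (red triangles) lie in 4 of them, and direct repeats (purple diamonds) lie in Srebf1 and Abca1.

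Against WT, most cholesterol genes of both arms were slightly lower in the library labelled Tle3cKO. Differences are log2 ratios of FPKM plus 1, which understates those of low genes, and ratios of at least 0.32 in size are counted as larger ones. Of 34 members 28 were below WT (82.4%), beside 52.4% of all 11114 genes, and their median log2 ratio was -0.14, beside -0.01 for all genes. Those lower by at least 0.32 numbered 4, or 11.8% of members, beside 5.25% of all genes. No member was higher by at least 0.32, beside 6.87%, and none differed 2-fold, beside 0.423%. How many stand below WT depended on the scaling. With equal total FPKM in each library, 20 of 34 were below WT beside 31.5% of all genes, whose median became 0.08, and the median of the 18 enzymes became -0.05. Members lower by at least 0.32 then numbered 2, and 1 was higher (Acat2); a pseudocount of 5 and a filter at 5 FPKM each gave 2 lower as well. Macrophage markers were divided, with 6 of 9 below WT in that library and a median of -0.11. The 3 above WT were Mertk (0.66), Fcgr1 (0.11) and Cd68 (0.02). Its epithelial, B cell and non-coding RNA sums were above those of WT, and the part of all these in the differences was not tested.

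The mevalonate steps, which turn acetyl-CoA into farnesyl diphosphate, held the largest differences among enzymes. Mvk, the mevalonate kinase (ENSMUSG00000041939.14, chromosome 5, 114444269 to 114460591), had 1.81 FPKM in the library labelled Tle3cKO, against 2.63 in WT, a log2 ratio of -0.37. Fdps, the farnesyl diphosphate synthase, had 13 FPKM in the library labelled Tle3cKO, against 15.7 in WT (-0.25). Mvd, which decarboxylates mevalonate diphosphate, was at 6.59 and 7.93 (-0.23). Idi1, the isomerase that follows it, was at 15.2 and 17.4 (-0.18). Of the 7 genes of these steps 6 were below WT, beside 52.4% of all genes, with a median of -0.18. Hmgcs1, the HMG-CoA synthase, had 14.9 FPKM in the library labelled Tle3cKO, against 15.3 in WT (-0.03). The exception was Acat2, the cytosolic thiolase that starts the pathway, at 5.73 and 4.61 (0.26). Acat2 has a close relative, Acat3, with 4.09 FPKM in the library labelled Tle3cKO against 4.22 in WT, so the division of reads between them is uncertain.

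The squalene and sterol steps were lower by less. Of these 11 genes 10 were below WT in the library labelled Tle3cKO, beside 52.4% of all genes, with a median of -0.13, and none passed 0.32. This count depended on the scaling: with equal totals 11 of all 18 enzymes were below WT, beside 31.5% of all genes. The largest differences were in Lss (-0.22), Tm7sf2, a sterol reductase (3 FPKM against 3.61 in WT, -0.21), and Nsdhl, which takes part in removal of sterol methyl groups (2.94 against 3.51, -0.19). Dhcr7, which carries out the last step of a route to cholesterol, had 2.22 FPKM in the library labelled Tle3cKO, against 2.63 in WT (-0.17). Sqle, the squalene epoxidase known as a controlled step, was at 10.8 and 11.2 (-0.05), and Ebp, Sc5d and Fdft1 had log2 ratios between -0.01 and 0.01. Hmgcs1 and Sqle were thus among the enzymes nearest to WT here, though Ebp, Sc5d and Fdft1 were nearer. In Tle4cKO, Hmgcs1 (-0.17) and Sqle (-0.16) were instead among the enzymes furthest below WT. Exons of Fdft1, the squalene synthase, overlap 774 bases of the cathepsin gene Ctsb on the other strand. Ctsb had 943 FPKM in the library labelled Tle3cKO, against 963 in WT, and the sources used here do not state strandedness, so the level of Fdft1 may hold reads of Ctsb. Exons also overlap between Cyp51 and Akap9, Srebf1 and Rai1, Npc1 and Rmc1, Tm7sf2 and Vps51, and Fdps and Gm43738.

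Of the 5 genes of SREBP control 4 were below WT in the library labelled Tle3cKO, beside 52.4% of all genes, with a median of -0.06. Srebf1 and Srebf2 both had a log2 ratio of -0.06. Scap, the escort of SREBPs to the Golgi, had 11.2 FPKM in the library labelled Tle3cKO, against 12.7 in WT (-0.16). Insig1, which retains SREBPs in the endoplasmic reticulum and is itself an SREBP target, was at 29 and 33.2 (-0.19), whereas its relative Insig2 was at 7.4 and 6.86 (0.10). Stard4, a small carrier that moves cholesterol between membranes and is a known SREBP target, had the lowest log2 ratio of all members, with 2.74 FPKM in the library labelled Tle3cKO against 4.27 in WT (-0.49). Of the transport genes Npc1 (-0.19), Lpl, the lipoprotein lipase (11.6 FPKM against 13.1 in WT, -0.16), and Npc2 (-0.13) were slightly lower too.

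The LXR side was divided in the library labelled Tle3cKO. Abca1 (ENSMUSG00000015243.4, chromosome 4, 53030787 to 53159895) had a log2 ratio of 0.18, with 113 FPKM in the library labelled Tle3cKO against 99.6 in WT. Abcg1, which exports cholesterol to HDL particles (ENSMUSG00000024030.7, chromosome 17, 31057675 to 31117988), went the other way, at 9.24 and 13 (-0.45). The ratio of Abca1 to Abcg1 within a library was therefore 12.3 in the library labelled Tle3cKO, 8.07 in Tle4cKO and 7.67 in WT. Nr1h3, the gene of LXR alpha (ENSMUSG00000002108.10, chromosome 2, 91184061 to 91202834), had 12.8 FPKM in the library labelled Tle3cKO, against 17.3 in WT (-0.41). Nr1h2, the gene of LXR beta, was at 46.1 and 48.5 (-0.07). The receptor genes thus differed unequally, with a ratio of Nr1h2 to Nr1h3 of 3.61 in the library labelled Tle3cKO, 4.12 in Tle4cKO and 2.8 in WT. Apoe had a log2 ratio of -0.17, and Mylip, an LXR-induced ubiquitin ligase that removes lipoprotein receptors, one of 0.05 (40.9 FPKM against 39.6 in WT). The median of the LXR arm was -0.12 and that of the SREBP arm -0.16. Their difference of -0.04 was of the other sign, 0.01, without the members whose exons overlap another coding gene and without Acat2.

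**Figure D3:**
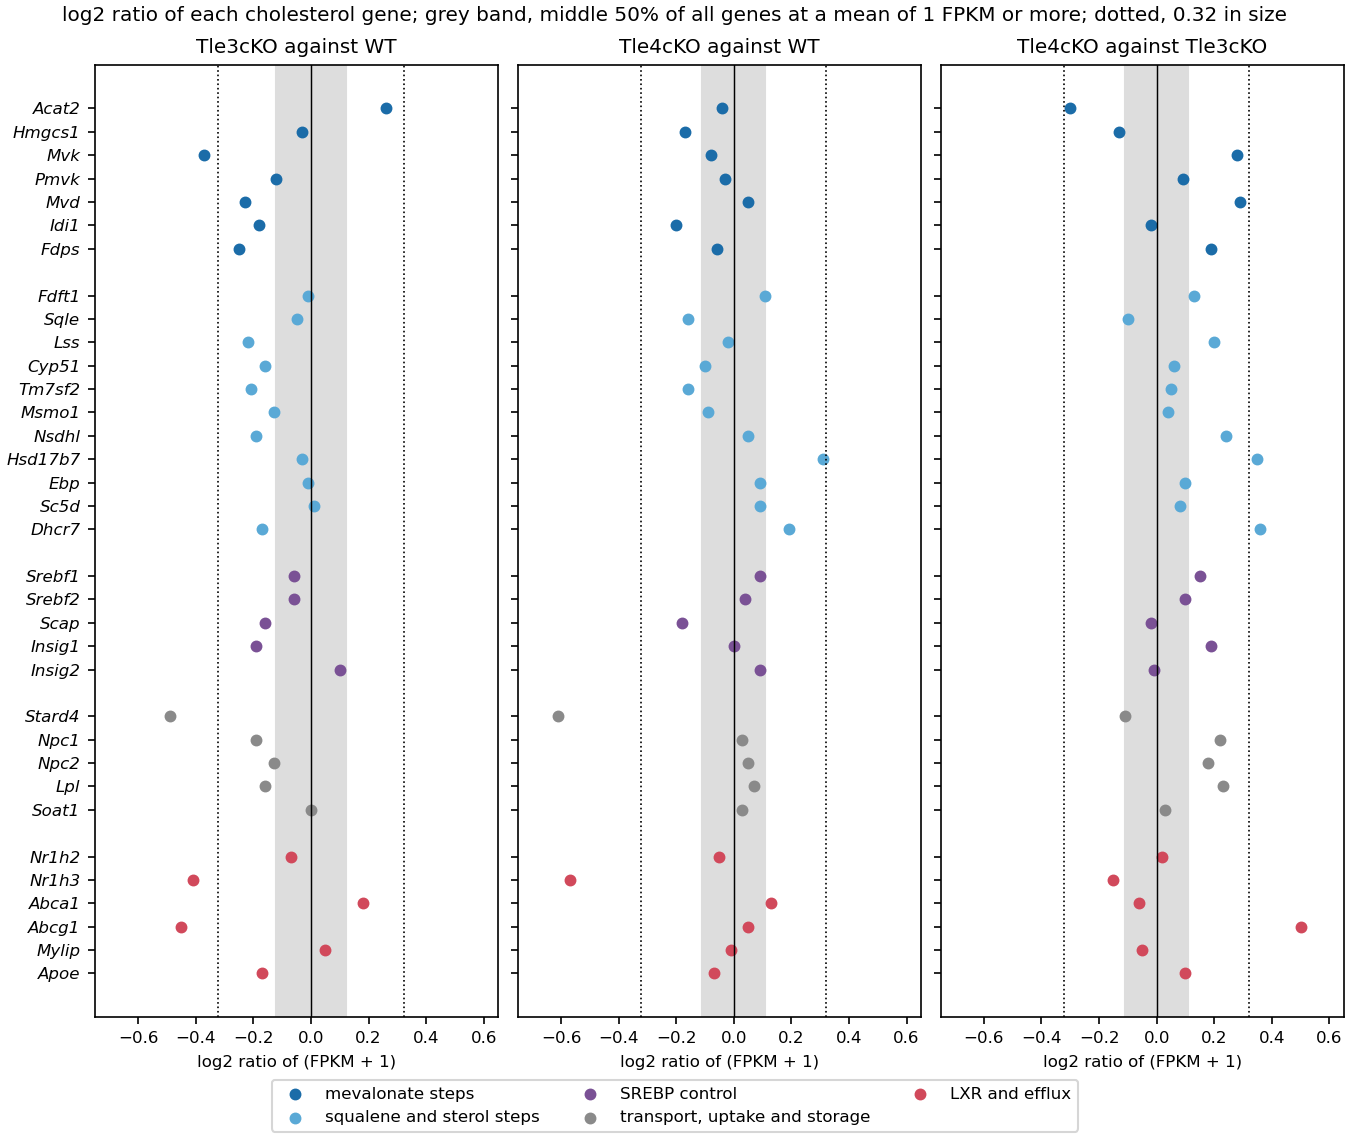
The log2 ratio of FPKM plus 1 for each of the 34 genes (points, coloured by role) in the contrasts between the library labelled Tle3cKO and WT, between Tle4cKO and WT, and between Tle4cKO and the library labelled Tle3cKO. Most points of the first panel lie left of 0 with a median of -0.14, those of the middle panel scatter around 0, and the points past the dotted lines at 0.32 in size number 4, 2 and 3.

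In Tle4cKO the cholesterol genes as a whole stood where all genes stood. Of 34 members 17 were below WT (50%), beside 50.6% of all genes, and the median log2 ratio of the 18 enzymes was -0.03. Lower by at least 0.32 were 2 members (5.9%), beside 5.94% of all genes, none was higher by as much, beside 5.17%, and none differed 2-fold, beside 0.648%. The 2 members were Stard4 and Nr1h3. Stard4 was at 2.46 FPKM in Tle4cKO and 4.27 in WT, a log2 ratio of -0.61, at percentile 1.6 of all genes. Nr1h3 was at 11.4 and 17.3 (-0.57). Both were also low in the library labelled Tle3cKO, as given above, and both comparisons use the same WT library. With a pseudocount of 5 or a filter at 5 FPKM 1 member was lower by at least 0.32, and with equal totals 1 was higher (Hsd17b7). Without Stard4 and Nr1h3 the log2 ratios in Tle4cKO ran from -0.20 for Idi1 to 0.31 for Hsd17b7.

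Most mevalonate genes were slightly below WT in Tle4cKO, and the later enzymes lay on both sides of it. Of the 7 mevalonate genes 6 were below WT, with a median of -0.06, led by Idi1 at 15 FPKM in Tle4cKO and 17.4 in WT (-0.20) and Hmgcs1 at 13.5 and 15.3 (-0.17). Of the 11 squalene and sterol genes 6 were above WT and 5 below, with a median of 0.05, beside 50.6% of all genes below WT. Hsd17b7, which acts in sterol demethylation, was at 1.63 FPKM in Tle4cKO and 1.12 in WT (0.31), and Dhcr7 was at 3.13 and 2.63 (0.19). Both are among the members with the lowest levels. The epithelial markers, which summed to 49 FPKM in Tle4cKO and 5.04 in WT, and the B and plasma cell markers, at 287 and 105, were highest in the same library, and their part in these values was not tested. The 5 later enzymes below WT were Sqle, at 9.95 FPKM in Tle4cKO and 11.2 in WT (-0.16), Tm7sf2 (-0.16), Cyp51 (-0.10), Msmo1 (-0.09) and Lss (-0.02). Insig1 was equal, at 33.2 FPKM in both libraries, and Scap was at 11.1 and 12.7 (-0.18). On the LXR side Abca1 (0.13), Srebf1 (0.09), Lpl (0.07) and Abcg1 (0.05) were slightly above WT, and Mylip (-0.01), Nr1h2 (-0.05) and Apoe (-0.07) slightly below. The genes with a direct repeat, Abca1 and Srebf1, were both above WT here, as were Lpl and Abcg1, which had no promoter window. In the library labelled Tle3cKO, Abca1 and Srebf1 had log2 ratios of 0.18 and -0.06. A link between the motif and these ratios was not tested.

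Set directly against the library labelled Tle3cKO, Tle4cKO had slightly more of most cholesterol genes. Of 34 members 24 were higher in Tle4cKO, beside 52.4% of all genes, and the median of the 18 enzymes was 0.10, beside 0.01 for all genes. With equal totals that median became 0.03, where the median of all genes was -0.05, and 15 of 34 members were lower in Tle4cKO beside 63.6% of all genes, against 10 of 34 as deposited. Higher by at least 0.32 were 3 members (8.8%), beside 4.59% of all genes, none was lower by as much, beside 6.77%, and none differed 2-fold, beside 0.729%. The 3 were Abcg1, at 13.5 FPKM in Tle4cKO and 9.24 in the library labelled Tle3cKO (0.50), Dhcr7, at 3.13 and 2.22 (0.36), and Hsd17b7, at 1.63 and 1.07 (0.35). Equal totals gave 1 higher and 1 lower, a pseudocount of 5 gave 1 higher, and one of 0.1 gave 5 higher and 1 lower. Abcg1 was thus lowest in the library labelled Tle3cKO, with Tle4cKO and WT close together at 13.5 and 13 FPKM. The 5 dendritic cell markers, none of them at 0, had summed levels of 356 FPKM in Tle4cKO, 249 in the library labelled Tle3cKO and 337 in WT. Most of that was Ccr7, at 316, 216 and 305 FPKM, whereas Flt3 was highest in the library labelled Tle3cKO, at 13.7, 15.6 and 11.2. Of the 5 markers 4 were higher in Tle4cKO than in the library labelled Tle3cKO, and their part in the values of Abcg1 was not tested. Acat2 was the lowest, at 4.46 FPKM in Tle4cKO and 5.73 in the library labelled Tle3cKO (-0.30). The medians of the SREBP arm (0.10) and the LXR arm (0.06) had the same sign. In none of the 3 comparisons did the medians of the arms differ by more than 0.05, less than the quartile range of either arm's own genes. With other makes of the LXR arm the largest difference was 0.12, in Tle4cKO against the library labelled Tle3cKO without Lpl and Srebf1.

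**Figure D4:**
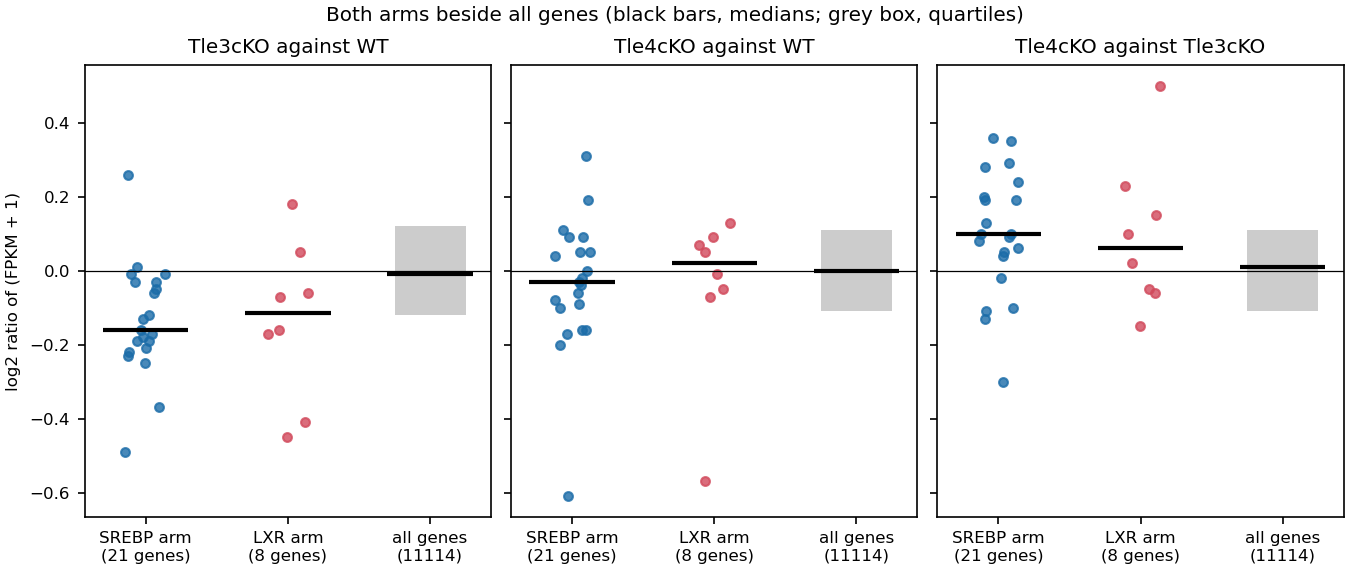
The log2 ratio of FPKM plus 1 of each SREBP arm gene (blue) and each LXR arm gene (red) in the 3 comparisons, with black bars at the medians and a grey box from the lower to the upper quartile of 11114 genes. The medians of both arms lie on the same side of 0 for the library labelled Tle3cKO against WT (-0.16 and -0.12), and the genes within each arm spread far more widely than the arms differ.

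Other genes of uptake and efflux showed a few larger differences than the members. Of 13 measured uptake genes, 1 was lower by at least 0.32 and none higher in the library labelled Tle3cKO, and 1 was higher and none lower in Tle4cKO, with medians of -0.10 and -0.01 beside -0.01 and 0.00 for all genes. Of all genes, 6.87% were higher and 5.25% lower by as much in the library labelled Tle3cKO, and 5.17% and 5.94% in Tle4cKO. Scarb1, a scavenger receptor for HDL, had 14.2 FPKM in the library labelled Tle3cKO, against 20.1 in WT (-0.47). It had 21.7 FPKM in Tle4cKO, so it was lowest in the same library as Abcg1. Gramd1b, the uptake gene counted as higher in Tle4cKO, had 3.6 FPKM there, against 2.65 in WT (0.33). In the library labelled Tle3cKO it had 2.62 FPKM. Of 14 measured efflux and oxysterol genes, 2 were higher by at least 0.32 and none lower in the library labelled Tle3cKO. In Tle4cKO 3 were higher and 1 lower, and the medians were 0.11 and -0.04. Apoc2 and Apoc1, apolipoprotein genes that lie beside Apoe, differed from it in direction or in size. Apoc2 had 21.4 FPKM in the library labelled Tle3cKO, 16.9 in Tle4cKO and 11.6 in WT, with log2 ratios of 0.83 and 0.51 to WT. Apoc1 was at 4.94, 1.17 and 4.03, which puts Tle4cKO at -1.21 relative to WT, where Apoe was at -0.07. These levels of Apoc1 are low, so its ratio rests on small values. Soat2, a second cholesterol esterifying enzyme, had 3.12 FPKM in the library labelled Tle3cKO, 3.73 in Tle4cKO and 2.13 in WT. Plin2, which coats lipid droplets, was at 324, 370 and 281. Levels of Lipa, the lysosomal lipase that frees cholesterol from esters, were close, at 294, 301 and 282 FPKM.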

How the data were processed

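RNA-seq was done on colonic macrophages pooled by genotype before extraction, 1 library each from Tle3cKO, Tle4cKO and WT mice, per the labels' protocols. The authors deposited FPKM per gene, per the file headers, with 23997 rows in each library. TopHat2 2.1.0, Cufflinks 2.2.1 and mm10 are named in the submitters' processing notes, with no role given. FPKM divides by length and library size, so it depends on the most abundant genes, of which the top 10 held 16.6% of FPKM in the library labelled Tle3cKO, 17% in Tle4cKO and 18.9% in WT.

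The members, arms and lists were chosen with earlier results of these data known. All 34 members were named, and of other listed genes those past a log2 ratio of 0.32, up to 4 per list and comparison; Lipa was named after its value was seen. Some pathway genes outside the list are not described here. Log2 ratios used FPKM plus 1 over the 11114 genes whose mean reached 1 FPKM. FPKM are not counts, so no count model was used, and 1 library per genotype allowed no test. Relative depth is the commonest ratio of values under 0.3 FPKM. Identifiers, coordinates and exon overlaps came from GENCODE M21 (same build), and promoters from RefSeq. The calculation of ratios was checked on copies of the WT values with known folds put in and no noise, which checks the arithmetic alone. Other settings were pseudocounts of 0.1 and 5, no filter and one at 5 FPKM, 3 scalings, removal of the length trend by a running median of 501 genes, folds of 1.5 and 2, smaller LXR arms and, chosen after seeing the data, leaving out 7 members with shared exons or a close copy. Python 3.11.15, numpy 2.4.6, pandas 2.3.3 and matplotlib 3.10.9 were used.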

Additional observations from a re-analysis of the deposited data

How the results depend on the processing

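No paired analysis was possible because each genotype has 1 library, and no replicate was left out for the same reason. A median counted as moved when its sign changed or it shifted by at least 0.05, and a count when it differed by over 1.5 times. Of 186 recomputed medians, differences and counts, 41 moved. The 186 include those without a filter, which could not move because all 34 members reached a mean of 1 FPKM. For single members, 9 of the recomputed log2 ratios dropped below 0.32 in size and 10 passed it. No ratio of at least 0.32 changed sign, but these settings could hardly have changed one. A pseudocount or a filter cannot, and the scalings and the length trend shifted ratios by less than 0.32.

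For the library labelled Tle3cKO against WT, the median of the enzymes was -0.09 and that of the SREBP arm -0.10 with a pseudocount of 5. With equal totals these were -0.05 and -0.07, and that of the LXR arm -0.02, against a median of all genes of 0.08. The SREBP minus LXR difference was 0.00 with the 5 FPKM filter, and 0.01 without members that share exons or have a close copy. Members lower by at least 0.32 numbered 2 with a pseudocount of 5, with the 5 FPKM filter and with equal totals, which also gave 1 higher (Acat2). Members lower by 1.5-fold or by 2-fold numbered 0.

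In Tle4cKO against WT, equal totals gave an SREBP arm median of 0.00. The LXR arm median was -0.03 without Lpl and Srebf1, and -0.01 without the members that share exons, and the difference between arms was 0.00 in both cases. Counts were 1 higher with a pseudocount of 0.1 and with equal totals (Hsd17b7), and 1 lower with a pseudocount of 5, with the 5 FPKM filter and at 1.5-fold, and 0 at 2-fold.

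In Tle4cKO against the library labelled Tle3cKO, equal totals gave medians of 0.03 for the enzymes, 0.03 for the SREBP arm and -0.01 for the LXR arm, with 1 member higher and 1 lower. The LXR arm median was 0.12 without its receptors, with a difference between arms of -0.03, and -0.02 without Lpl and Srebf1, with a difference of 0.12. A pseudocount of 0.1 gave 5 higher and 1 lower, and one of 5 gave 1 higher, as did the 5 FPKM filter. Upper-quartile scaling and removal of the length trend gave 1 lower each (Acat2), and folds of 1.5 and 2 gave 0 higher.

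The cause of these shifts was not tested, except where a setting fixes them by construction. A pseudocount of 5 shrinks ratios of low genes, and the filter at 5 FPKM leaves 26 of the 34 members. Each scaling, equal totals included, multiplies a whole library by a single factor, so it shifts the ratios of a comparison in the same direction. A higher fold can lower a count but cannot raise it. Low members such as Mvk, Stard4, Lss and Hsd17b7 depended most on the pseudocount: Stard4 in Tle4cKO was at -0.61, and at -0.31 with a pseudocount of 5. Without replicates or fragment counts, these differences have no sampling error to be set against.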

Other observations

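Genes that draw on the same precursors were read from further lists. In the isoprenoid branch, which takes farnesyl diphosphate to ubiquinone, dolichol and protein anchors, 8 of 9 genes were above WT in the library labelled Tle3cKO, with a median log2 ratio of 0.14, beside 52.4% of all genes below WT and a median of all genes of -0.01. Equal totals put 31.5% of all genes below WT. Pdss1, which builds the ubiquinone tail, had 2.36 FPKM in the library labelled Tle3cKO, 1.81 in Tle4cKO and 1.37 in WT, and Dhdds, of dolichol synthesis, was at 10.2, 10.1 and 7.89. In Tle4cKO 4 of the 9 were above WT, with a median of -0.02. Coq2, which joins the tail to the ubiquinone ring, was at 7.52 FPKM in Tle4cKO and 9.91 in the library labelled Tle3cKO.

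Of 14 fatty acid synthesis genes, some of which SREBPs and LXR both drive, 1 was higher by at least 0.32 and 1 lower in the library labelled Tle3cKO. In Tle4cKO 1 was higher and 2 lower, and the medians were -0.07 and -0.11. Those counts stand beside 6.87% of all genes higher and 5.25% lower in the library labelled Tle3cKO, and 5.17% and 5.94% in Tle4cKO. Below WT at any size were 8 of 14 in the library labelled Tle3cKO and 11 of 14 in Tle4cKO, beside 52.4% and 50.6% of all genes. Scd1, a stearoyl-CoA desaturase, had 22 FPKM in the library labelled Tle3cKO, 22.4 in Tle4cKO and 15.9 in WT, whereas its relative Scd2 was at 6.84, 7.57 and 9.07. Fads2, a desaturase of polyunsaturated fatty acids, was at 3.92, 2.55 and 3.8, and Elovl6, an elongase, at 2.28, 1.69 and 2.4. None of 9 measured genes of SREBP cleavage and sterol-controlled protein degradation passed 0.32 in any comparison, and their median against WT was -0.01 in Tle4cKO, beside -0.08 where the library labelled Tle3cKO was compared.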
